A study of Mus musculus with 4 samples.

Results

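Hmga2, Etv4, Tpbg, Tns4, Oaf, Wnt7b, Fscn1, Tmem158, Mtap and Syt13 are 10 of the 19465 genes measured in sections of mouse mammary tumours and lungs, grouped here as genes of the carcinoma. They were taken as a list because their UMIs had appeared to mark tumour tissue in these same sections, so their higher level in tumour than in lung is a description and was not tested. The sections came from 2 BALB/c mice, labelled Mouse_627 and Mouse_628, which received 4T1 mouse mammary carcinoma cells in the mammary fat pad at 8 weeks of age. The tumours and lungs were taken 28 days later, and 1 fixed section of the primary tumour and 1 of the lung of each mouse were profiled by Visium, in which probe pairs for each gene are captured on a grid of barcoded spots and counted as unique molecular identifiers (UMIs). Each tissue thus has n = 2 sections, both tissues come from the same animals, all animals carried tumours, and no lung without tumour cells was measured. 4T1 is a single cell line, so both mice test the same tumour cells.

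Many of these genes are active in the embryo, quiet in most adult organs and switched on again in carcinomas. Hmga2 encodes an architectural chromatin protein that bends AT-rich DNA and is held down in adult tissue by let-7 microRNAs, and Etv4 encodes a transcription factor of the PEA3 group that acts downstream of growth factor and ERK signals. Wnt7b is a secreted Wnt ligand, Tpbg is an oncofetal glycoprotein of the cell surface, and Tmem158 is a membrane protein induced by Ras. Tns4 is a tensin of focal adhesions that lacks the actin-binding part of its relatives, and Fscn1 bundles actin filaments in filopodia and is also made by mature dendritic cells. Mtap recycles methylthioadenosine in the methionine salvage pathway, Syt13 is an atypical synaptotagmin of membrane traffic, and Oaf is the relative of a fly gene called out at first.

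In the GRCm38 assembly, the build of the counts, GENCODE places Hmga2 on the minus strand of chr10:120361275-120476469 and Etv4 on the minus strand of chr11:101769742-101785371. Tns4 lies on the same chromosome at chr11:99065678-99089306. Tpbg (chr9:85842380-85847040), Oaf (chr9:43221235-43239911) and Tmem158 (chr9:123259053-123260764) share a chromosome but are far apart. Wnt7b is at chr15:85535437-85582473, Fscn1 at chr5:142960343-142973185, Mtap at chr4:89137122-89181081 and Syt13 at chr2:92915098-92956058. All 10 are protein-coding genes.

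Promoter sequences from RefSeq (GRCm38.p6), each from 250 bases before to 50 after a transcription start, were matched for 5 of the 10 genes, namely Hmga2, Tpbg, Oaf, Fscn1 and Mtap. They were searched on both strands for CCGGAA, the core of ETS sites such as those of Etv4, for the AP-1 motif TGANTCA and for the TCF motif CTTTGA of Wnt signalling. Of the 6 promoters of these genes, 1 held the ETS letters and the same promoter held the AP-1 letters, while the TCF letters were in 0. Among all 32851 promoters of the table, 14.9% held the ETS letters, 7.81% the AP-1 letters and 16.003% the TCF letters. The promoter of Hmga2, the gene lowest in lung-rich spots relative to the primary tumour below, and the upstream promoter of Tpbg, which alone held motifs, are shown 5′ to 3′ on the strand of the gene, with motifs in capitals. The Hmga2 window is chr10:120476420-120476719 (minus strand) and the Tpbg window chr9:85842130-85842429 (plus strand). In the Tpbg window the capitals mark, in order, CCGGAA on the opposite strand and TGANTCA at 2 places, none of which overlap.
Hmga2: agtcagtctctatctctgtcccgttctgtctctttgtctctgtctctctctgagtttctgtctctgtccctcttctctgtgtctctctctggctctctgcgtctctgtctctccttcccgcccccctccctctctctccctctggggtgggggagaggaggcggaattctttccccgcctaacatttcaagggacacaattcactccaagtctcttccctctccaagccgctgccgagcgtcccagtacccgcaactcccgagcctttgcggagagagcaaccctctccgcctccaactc
Tpbg: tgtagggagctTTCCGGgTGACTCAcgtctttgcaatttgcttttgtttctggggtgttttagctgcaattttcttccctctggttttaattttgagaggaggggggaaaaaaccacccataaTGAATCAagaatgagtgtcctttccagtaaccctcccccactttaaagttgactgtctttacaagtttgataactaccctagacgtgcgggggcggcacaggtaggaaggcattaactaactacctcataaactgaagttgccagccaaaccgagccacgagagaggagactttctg

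The 4 sections gave 9339 spots with more than 200 genes, between 1697 and 2780 per section, and 10890154 to 30240176 UMIs. Median depth was 2931 and 1820 UMIs per spot in the primary tumours of Mouse_627 and Mouse_628 and 6555 and 9174.5 in their lungs. A spot covers a small area of tissue and may mix cell types. The 1178 olfactory and vomeronasal receptor genes, which these tissues should not use, averaged 0.737 and 7.86 UMIs per 1000000 UMIs of the section (CPM) in the primary tumours and 0.205 and 0.155 CPM in the lungs, and serve as a background level. Of the 3443 spot barcodes seen, 1342 occurred in all 4 sections, since a barcode stands for a place on the slide. All 17 alveolar and capillary markers measured, such as Sftpc and Ager, were at least 2-fold lower in the primary tumour than in the lung of both mice, as the tissue labels would have it. Of 11 epithelial markers measured, 0 were at least 2-fold higher in the primary tumour in both mice and 5 were at least 2-fold lower, against 7.57% of the 15154 genes with at least 100 UMIs. They were uneven, with Epcam at 5.32 and 10.7 CPM in the primary tumours and 55.8 and 39.4 CPM in the lungs but Krt8 at 208 and 399.9 CPM in the tumours and 61.7 and 204 CPM in the lungs, and Krt7 at 273 and 289 CPM in the tumours and 455 and 569 CPM in the lungs.

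Summed over spots, the 10 genes together held 3073 and 2644 CPM in the primary tumours of Mouse_627 and Mouse_628. They held 249 CPM in the lung of Mouse_627 and 1509 CPM in the lung of Mouse_628. The lungs thus stood far apart while the primary tumours were close, and the tumour to lung ratio of each of the 10 genes was larger in Mouse_627. In summed spots, fewer cells of a type and less RNA per cell cannot be told apart. With a threshold of 2-fold, 4 of the 10 genes (Hmga2, Tns4, Wnt7b and Mtap) were higher in the primary tumour in both mice, against 13.2% of the 15154 genes with at least 100 UMIs. For 8 of the 10, all but Tmem158 and Syt13, both primary tumours lay above both lungs, against 38.6% of those genes. With TMM scaling, which moved all tumour to lung ratios down by 0.51 and 0.43 on the log2 scale in Mouse_627 and Mouse_628, only Hmga2 stayed at least 2-fold higher in both mice (1 of 10), and the ratios of Tmem158 in Mouse_627 (0.891) and of Tpbg (0.757) and Fscn1 (0.771) in Mouse_628 turned below 1. With the mean over spots of the CPM of each spot Wnt7b no longer reached 2-fold in both mice, which left 3 (Hmga2, Tns4 and Mtap). The genes were chosen on this contrast, so these shares are given without a reading.

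Of the nuclear factors, Hmga2 stood at 324 CPM in the primary tumour and 14.2 CPM in the lung of Mouse_627, and at 343 and 93.7 CPM in Mouse_628. Both tumours lay above both lungs, by 22.8-fold (95% exact interval 19.4 to 26.9, counting error only, as for all intervals of levels below) in Mouse_627 and 3.66-fold (3.48 to 3.84) in Mouse_628. The means were 333 ± 13.4 CPM in tumour and 53.9 ± 56.2 CPM in lung (SD, n = 2). Etv4 was at 159 and 164 CPM in the primary tumours and at 9.35 and 109 CPM in the lungs of Mouse_627 and Mouse_628, so its tumour level hardly differed between the mice while its lung level differed 11.6-fold. At least 1 UMI of Hmga2 was found in 58.4% and 46.7% of primary tumour spots and in 6.95% and 45.1% of lung spots. After each spot was thinned to 2000 UMIs, which left 1382 and 1041 tumour spots and 1622 and 2698 lung spots, these shares became 47.2% and 48.2% in tumour and 2.96% and 14.4% in lung. At equal depth the primary tumours of both mice were alike in this share, and the high share in the lung of Mouse_628 shrank with depth.

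Relatives of these factors did not all follow them. Hmga1b, of the same HMGA family, was at 222 and 245 CPM in the primary tumours and at 20.9 and 90.2 CPM in the lungs, and Igf2bp2, an RNA-binding protein that Hmga2 is known to activate, at 269 and 287 against 28.3 and 150 CPM. Etv5, the other PEA3 factor measured and one that alveolar type 2 cells use, lay the other way round, at 77.2 and 55.6 CPM in tumour and 122 and 88.0 CPM in lung. Apart from Hmga2 itself, 8 genes on the HMGA and let-7 list had enough UMIs, and Hmga1b was not on that list. Of these, 1 was at least 2-fold higher in tumour in both mice and 2 were lower, beside 13.2% and 7.57% of all genes. The higher one was Trim71, at 4.06 and 4.32 CPM in the tumours and 0.090 and 2.08 CPM in the lungs. In the tumour of Mouse_628 it lay under the mean of the receptor genes (7.86 CPM). Igf2bp2 fell short of 2-fold in Mouse_628. Apart from Etv4, of 14 genes on the PEA3 and ERK list 3 were higher and 1 lower, beside the same shares.

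Of the ligand and the membrane proteins, Wnt7b was at 389 and 282 CPM in the primary tumours and 22.7 and 137 CPM in the lungs, which put it above both lungs in both tumours and 17.2-fold and 2.06-fold higher within Mouse_627 and Mouse_628. Tpbg was at 330 and 190 CPM in tumour and at 25.3 and 186 CPM in lung. Its fold was 13.1 in Mouse_627 but 1.02 (0.971 to 1.07) in Mouse_628, where tumour and lung did not differ beyond counting error. Tmem158 was scarce throughout, at 7.39 and 12.49 CPM in tumour and 5.84 and 19.4 CPM in lung. It was higher in the lung than in the tumour of Mouse_628 and, in the tumour of that mouse, stayed under the 95th percentile of the receptor genes (19.0 CPM). Other Wnt ligands were low in these tumours, with Wnt10a at 19.8 and 25.8 CPM and Wnt7a, the closest relative, at 0.813 and 7.35 CPM against 11.8 and 5.06 CPM in the lungs. Axin2, a common target of Wnt signals, was at 2.36 and 6.52 CPM in tumour, below both lungs. In the tumour of Mouse_628 both Wnt7a and Axin2 lay under the mean of the receptor genes (7.86 CPM). Apart from Wnt7b, 20 Wnt ligands, co-receptors and targets had enough UMIs (30 measured in all with Wnt7b). Of these, 2 were at least 2-fold higher in tumour in both mice and 3 lower, beside the same 13.2% and 7.57%.

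Of the adhesion and cytoskeletal genes, Tns4 was the steadier one across the primary tumours, at 365 and 363 CPM, with 19.6 and 148 CPM in the lungs (18.6-fold and 2.46-fold). The other tensins differed from it and from each other. Tns1, a tensin of muscle and stroma, was at 23.8 and 21.9 CPM in tumour and 888 and 490 CPM in lung, and Tns2 at 62.8 and 50.0 CPM in tumour and 131 and 89.9 CPM in lung. Tns3, at 277 and 182 CPM in tumour and 124 and 157 CPM in lung, lay above both lungs in both tumours as Tns4 did, but by less than 2-fold in Mouse_628. Fscn1 was at 347 and 301 CPM in tumour and 58.1 and 289 CPM in lung. Its tumour to lung ratio of 5.97 in Mouse_627 and 1.04 in Mouse_628 was among the smallest of the 10 genes, and its relatives Fscn2 and Fscn3 did not exceed 6.24 CPM in any section.

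Of the remaining genes, Mtap was at 634 and 586 CPM in the primary tumours and 47.7 and 250 CPM in the lungs, 13.3-fold and 2.34-fold higher in tumour. Its genomic neighbour Cdkn2b, a cell cycle inhibitor often lost together with Mtap in cancers, lay the other way round at 1.11 and 2.11 CPM in tumour and 42.1 and 25.1 CPM in lung. Cdkn2a, on the same locus, had only 77 UMIs in all sections together. Oaf was at 427 and 347 CPM in tumour and 26.5 and 213 CPM in lung, and both tumours again lay above both lungs. Syt13 was at 91.1 and 56.8 CPM in tumour and 19.9 and 64.7 CPM in lung, so that it was 4.59-fold higher in the tumour of Mouse_627 and slightly lower (ratio 0.878, 0.801 to 0.961) in that of Mouse_628.

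**Figure D1:**
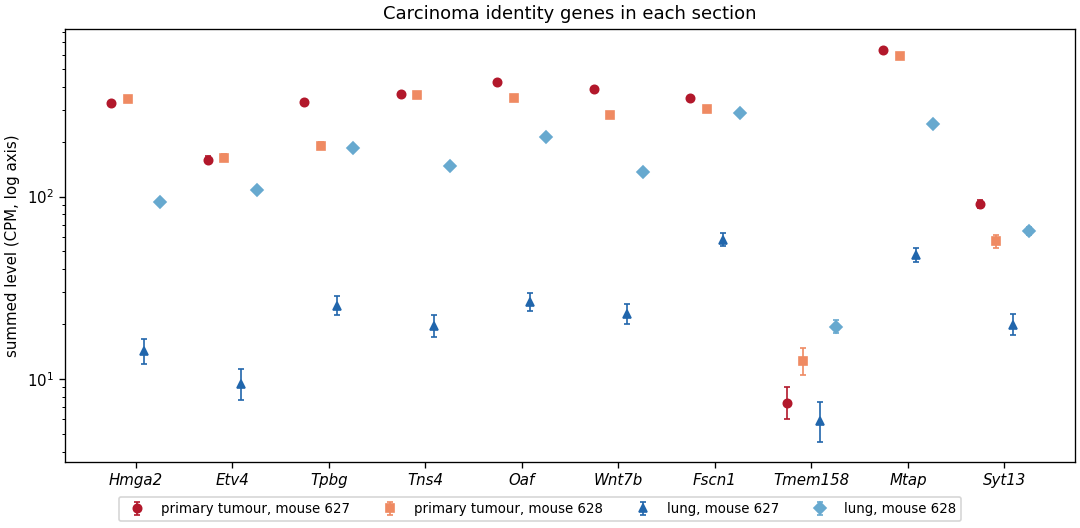
Summed level of each gene (CPM, log axis) in the 4 sections, with bars for 95% exact Poisson intervals (counting error only). The lung of Mouse_627 is the lowest section for every gene and the lung of Mouse_628 lies close to the primary tumours for Tpbg, Fscn1 and Syt13.

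Depth differed within the primary tumours, and the genes moved with it in different ways. From the shallowest to the deepest 25% of spots Hmga2 went from 445 to 312 CPM in Mouse_627 and from 199 to 379 CPM in Mouse_628. Between the same sets of spots the summed receptor background went from 5885 to 332 CPM and from 34155 to 2849 CPM. Mtap rose with depth in both tumours, from 453 to 665 CPM and from 365 to 656 CPM. The part of the background in these levels was not tested.

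The lung sections were then divided by tissue composition without use of the 10 genes. Spots were called lung-rich when they were in the top 25% of their section for the share of UMIs on alveolar and capillary markers. They were called lung-poor when this share was under 25% of the 90th percentile of the section, leaving out spots rich in airway, heart, smooth muscle or fat markers. There were 74 lung-poor spots of 1697 in Mouse_627 and 634 of 2780 in Mouse_628. In Mouse_627, 50 of the 74 were a band of spots with neutrophil markers at 131644 CPM and the 10 genes at only 123 CPM. The lung-poor spots below the section median of neutrophil markers were therefore also taken alone, a choice made after the data were seen, which left 24 spots in Mouse_627 and all but 6 of the 634 in Mouse_628. In these neutrophil-low spots the 10 genes together reached 3139 and 2383 CPM, against 141 and 704 CPM in lung-rich spots. The neutrophil-low sums were close to those of the primary tumours of the same mice, but their make-up was not. Single genes ranged from 23.9% (Oaf) to 755% (Syt13) of their primary tumour level in Mouse_627. In Mouse_628 they ranged from 42.7% (Hmga2) to 248% (Tmem158).

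**Figure D2:**
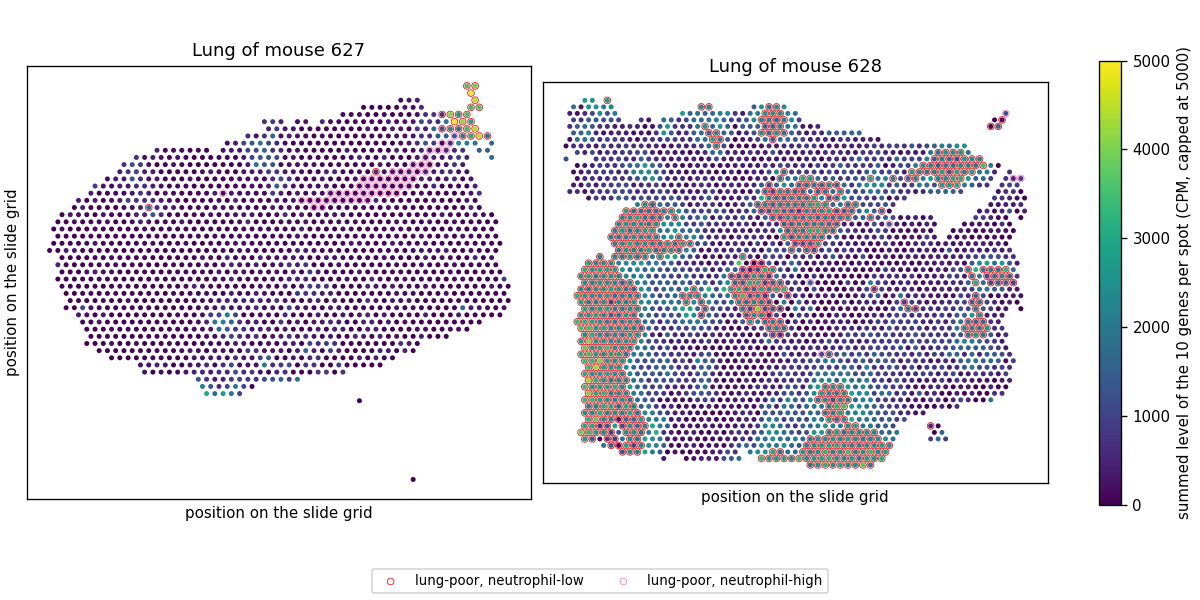
Position on the slide grid of each lung spot, coloured by the summed level of the 10 genes (CPM, capped at 5000), with lung-poor spots outlined in red where neutrophil markers were below and in pink where they were above the section median. In Mouse_627 the high spots form 1 patch at an edge of the section and a few fainter areas, while in Mouse_628 they fill large patches and shade off around them.

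All 10 genes passed the minimum of 100 UMIs over the classes compared. Of the 10, 9 were at least 2-fold higher in lung-poor than in lung-rich spots of both lungs, against 5.65% of 11062 genes, with Oaf the exception at 1.82-fold (0.972 to 3.24) in Mouse_627. With the neutrophil-low spots alone all 10 were, against 14.3% of 11030 genes. Tmem158 in Mouse_627 rested there on 2 UMIs, at 2.72-fold (0.301 to 11.9), and in all lung-poor spots on 6 UMIs, at 2.59-fold (0.815 to 7.17), so it was not set apart from 1. Hmga2 was at 150 CPM in the neutrophil-low and 3.93 CPM in the lung-rich spots of Mouse_627 and at 146 and 46.4 CPM in Mouse_628. The value of Mouse_627 rested on 22 UMIs (93.9 to 227 CPM), against 139 to 154 CPM in Mouse_628. It was obtained after spots nearly without Hmga2 were set aside, so the closeness of the 2 lungs is a description. Over all lung-poor spots Hmga2 was at 49.6 CPM in Mouse_627 and 146 CPM in Mouse_628. In the 50 neutrophil-rich spots of Mouse_627 a single UMI of Hmga2 was found (3.15 CPM, 0.0798 to 17.6), and Fscn1, with 13 UMIs, stood at 41.0 CPM beside 43.2 CPM in lung-rich spots. Because the genes were chosen as markers of tumour tissue, these counts describe them and support nothing further.

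How well each gene was confined to tumour tissue was first read from its lung-rich level as a percentage of its level in the primary tumour of the same mouse. In Mouse_627 the order was Hmga2 at 1.21% (0.605% to 2.17%), Wnt7b at 1.93% (1.19% to 2.95%), Etv4 at 2.69% (1.39% to 4.71%) and Tns4 at 3.03% (2.06% to 4.30%). Tpbg, Mtap and Oaf followed between 3.896% and 4.43%, then Syt13 at 7.84% and Fscn1 at 12.455%, and Tmem158 came last at 67.6% (35.7% to 119%). Each gene overlapped the next in its counting interval, apart from Fscn1 and Tmem158, so Hmga2, Wnt7b and Etv4 cannot be ranked among themselves in this lung. In Mouse_628 Hmga2 was again lowest at 13.5% (11.99% to 15.3%) and did not overlap Wnt7b at 18.0% (15.997% to 20.2%). Wnt7b, Tns4, Mtap, Etv4 and Oaf overlapped in sequence from 18.0% to 29.2%. Tpbg stood apart at 42.2%, and Fscn1, Syt13 and Tmem158 lay between 53.6% and 61.1%. In both mice, then, Hmga2 had the lowest value of the 10 and Wnt7b the next, though only in Mouse_628 did Hmga2 stand apart from it. Tmem158 had the highest value in both, apart from the gene before it only in Mouse_627. In Mouse_628 its percentage is taken of a tumour level of 12.49 CPM, under the 95th percentile of the receptor genes (19.0 CPM). Its place there is therefore not read further.

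This order did not hold against the lung-poor neutrophil-low spots of the same lung. There the lung-rich level in Mouse_627 was lowest for Syt13 at 1.04%, Wnt7b at 1.57% and Hmga2 at 2.62%, and highest for Tmem158 at 36.7%. In Mouse_628 it was lowest for Wnt7b at 22.3% and Etv4 at 23.1% and highest for Hmga2 at 31.8% and Fscn1 at 36.1%. The matching ratios in Mouse_628 of 4.49 (4.00 to 5.07) for Wnt7b, 3.15 (2.78 to 3.58) for Hmga2 and 2.77 (2.59 to 2.97) for Fscn1 set Wnt7b apart from these 2. It overlapped Etv4 at 4.34 (3.80 to 4.96), Tmem158 at 4.06 (2.99 to 5.62) and Tpbg at 3.74 (3.40 to 4.12). In Mouse_627 the ratios were 96.3 (59.2 to 164) for Syt13, 63.6 (38.6 to 109) for Wnt7b and 38.1 (17.7 to 87.1) for Hmga2, and these intervals overlapped. By value alone, Wnt7b was among the lowest 2 by both measures in both mice, and Hmga2 only against the primary tumour. The dendritic cell markers other than Fscn1 stood at 252 CPM in the neutrophil-low and 222 CPM in the lung-rich spots of Mouse_627 and at 143 and 118 CPM in Mouse_628, beside 483 and 43.2 CPM and 446 and 161 CPM for Fscn1.

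With distance from the lung-poor patches the summed level of the genes declined. Steps were counted on the slide grid from the nearest neutrophil-low lung-poor spot. In Mouse_628 the 10 genes together fell from 2383 CPM at 0 steps to 76.6% of that at 1 step, 51.7% at 2, 36.2% at 3, 31.1% at 4 to 6 and 24.1% at 7 or more, while the alveolar and capillary markers that defined the patches rose to 385% at 1 step and 824% at 7 or more. Hmga2 was at 146, 117, 78.9, 48.3, 50.2 and 28.8 CPM over the same steps. The single genes lay between 62.0% (Tmem158) and 82.5% (Mtap) of their level in the patches at 1 step, between 48.3% (Oaf) and 58.1% (Tns4) at 2 and between 28.0% (Wnt7b) and 42.9% (Syt13) at 3. At 7 or more steps 9 genes lay between 19.5% (Etv4) and 27.7% (Fscn1), and Tmem158 stood at 41.6% after 28.2% at 4 to 6. In Mouse_627 the sum went from 3139 to 887 CPM at 1 step, 334 at 2 and 162 at 4 to 6, a steeper decline around fewer spots, and was 198 CPM at 7 or more. Those far spots, which numbered 1352 of the 1697 of that lung, held 117 of its 158 Hmga2 UMIs and 55 of its 221 Syt13 UMIs. Hmga2 was thus at 13.7 CPM in them, near its 14.2 CPM in the whole lung, and Syt13 at 6.44 against 19.9 CPM. Spots shared between tumour and lung tissue and RNA that spread between spots cannot be told apart in these profiles.

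**Figure D3:**
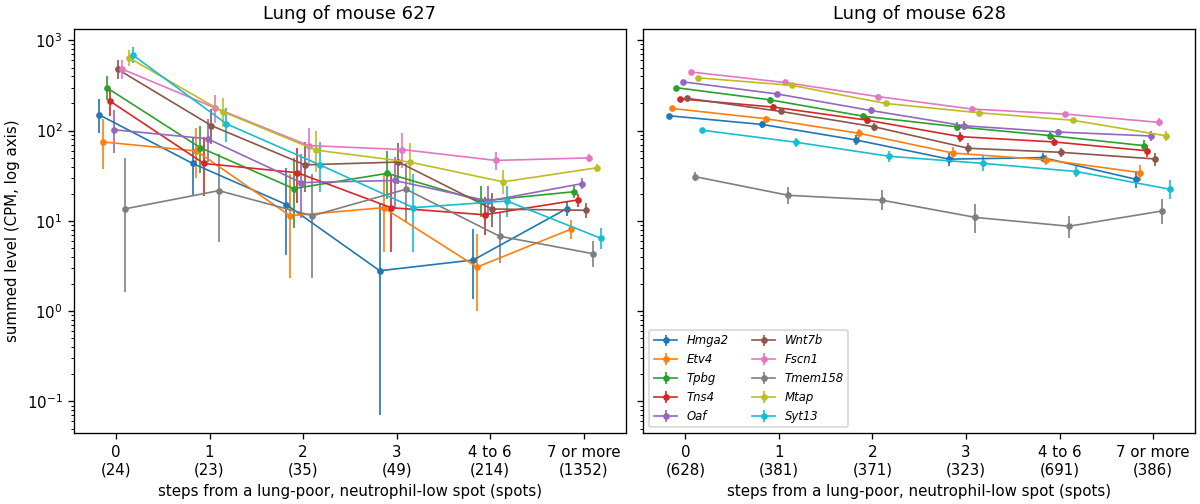
Summed level (CPM, log axis) of each gene against the number of grid steps from the nearest lung-poor, neutrophil-low spot, with the number of spots in brackets and bars for 95% exact Poisson intervals. In Mouse_628 the lines fall over the first 3 steps, and in Mouse_627 Syt13, Mtap, Fscn1 and Wnt7b start highest.

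Patches of at least 5 touching neutrophil-low spots differed in which of the genes they carried. Mouse_627 had 1 such patch, of 22 spots and 124289 UMIs, and Mouse_628 had 10, of 6 to 269 spots. The patch of Mouse_627 held 100 UMIs of Syt13, or 805 CPM (655 to 979), against 19.2 to 153 CPM in the patches of Mouse_628 and 91.1 and 56.8 CPM in the primary tumours. Syt13 was thus above every other patch and both primary tumours and was the leading gene of that patch relative to the lung-rich spots. Wnt7b was also highest there, at 555 CPM (432 to 703) against 60.0 to 282 CPM in Mouse_628, and Mtap at 708 CPM (568 to 872) against 160 to 452 CPM. Oaf at 113 CPM (61.6 to 189) and Etv4 at 88.5 CPM (44.2 to 158) lay below the primary tumour of the same mouse, which held 427 CPM (416 to 438) and 159 CPM (153 to 166), with intervals apart for Oaf and not for Etv4. Hmga2, at 153 CPM (92.0 to 239), and Tns4, at 217 CPM (143 to 316), also lay below that tumour, at 324 CPM (314 to 334) and 365 CPM (355 to 376), with intervals apart. Both were within the range of the patches of Mouse_628. The 4T1 markers Csf3, Mmp3 and Plau summed to 185 CPM in this patch and to between 750 and 3051 CPM in those of Mouse_628. Other genes that led the patch were Cdon, Spp1, Trp53i11 and Osr2, at 595, 2301, 1826 and 314 CPM, against 53.3, 1040, 143 and 19.5 CPM in the neutrophil-low spots of Mouse_628. Reg3g, an antimicrobial lectin of epithelia, was at 1327 CPM in the patch, 39.9 CPM in the neutrophil-low spots of Mouse_628 and 0.443 and 4.04 CPM in the primary tumours. Fibroblast markers summed to 3950 CPM in the patch and to 521 to 4205 CPM in those of Mouse_628, and airway markers to 965 CPM and to 10.7 to 888 CPM, and their part in these levels was not tested. Whether this patch is the same kind of tissue as those of Mouse_628 was not tested, and it supplied 22 of the 24 neutrophil-low spots of Mouse_627 on which the values above and below rest.

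Among the 10 patches of Mouse_628, Syt13 varied most, from 19.2 to 153 CPM, a ratio of 7.97 (3.13 to 26.0). Wnt7b varied 4.69-fold (2.09 to 13.1), from 60.0 to 282 CPM, and Tns4 3.28-fold (2.20 to 5.02), from 132 to 434 CPM. Hmga2 ranged from 78.6 to 203 CPM, a ratio of 2.58 (1.17 to 6.004), and Tmem158 from 14.3 to 37.7 CPM, a ratio of 2.64 (0.679 to 22.6), and for both the level intervals of the highest and the lowest patch overlapped. The extremes were picked among 10 patches after their values were seen, and the intervals do not allow for that, so these ratios are a description and no test of variation among patches. The remaining genes varied between 2.08-fold (Etv4) and 2.82-fold (Mtap). The highest patch was not the same for different genes. Tns4 peaked in a patch of 17 spots where Syt13 and Tpbg were lowest, and Fscn1 and Mtap in a patch of 92 spots.

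**Figure D4:**
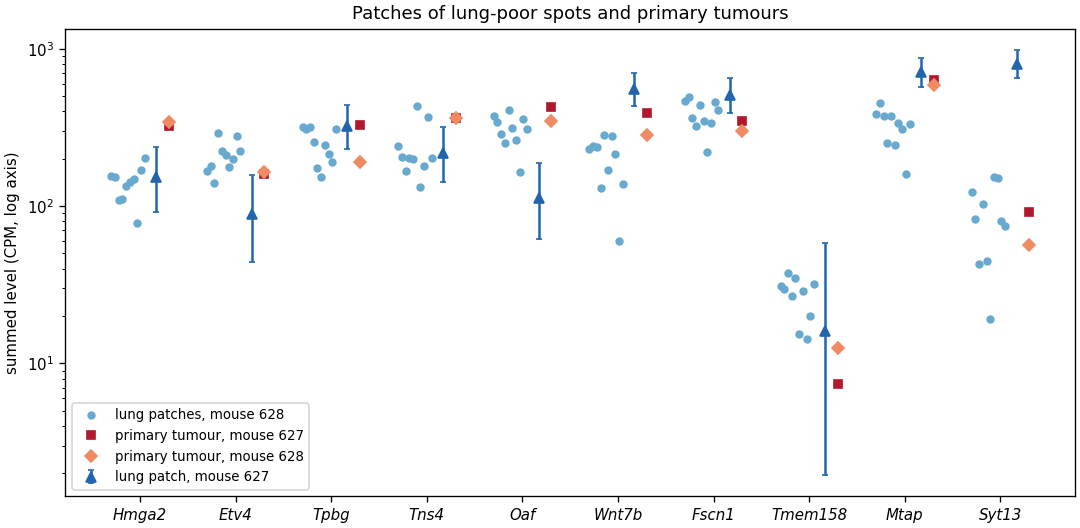
Summed level (CPM, log axis) of each gene in the 10 patches of lung-poor spots of Mouse_628 (light circles), in the patch of Mouse_627 (triangle, with its 95% exact Poisson interval) and in the primary tumours. Syt13 in the patch of Mouse_627 lies above all other points of that gene, and Hmga2 in all lung patches lies below both primary tumours.

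Lung-poor patches and primary tumours were compared by edgeR's quasi-likelihood test on the UMIs of all lung-poor spots against all spots of the primary tumour (n = 2 sections each, Benjamini-Hochberg adjustment). This comparison shares the primary tumour sections with those above. None of the 10 genes passed the adjusted threshold of 0.05 (0 of 10), with 3 (Hmga2, Tmem158 and Syt13) at an unadjusted p under 0.05, and by DESeq2 0 passed and 3 (Hmga2, Tns4 and Syt13) were under it unadjusted. Over all 14790 genes tested 6, or 0.0406%, were called higher and 5, or 0.0338%, lower in the lung-poor spots, so few genes of any kind were called. The lung and tumour sums share their animal, and with the mouse as a block 207 genes were called in place of 11, but again 0 of the 10. Same-mouse deviations from the class means correlated at -0.290, and the reason for the higher count was not tested. Hmga2 was at 49.6 and 146 CPM in the lung-poor spots and at 324 and 343 CPM in the primary tumours, so both lungs were below both tumours. Its edgeR log2 fold change was -1.61 (95% interval -2.84 to -0.38, adjusted p = 0.472). Tmem158 and Syt13 had the opposite sign, at 1.38 (0.11 to 2.64, edgeR adjusted p = 0.536) and 1.34 (0.05 to 2.62, edgeR adjusted p = 0.553). Tns4 had -1.15 (-2.42 to 0.11) and Mtap -0.87 (-2.02 to 0.27), while Tpbg had -0.25 (-1.55 to 1.06) and Fscn1 0.09 (-1.11 to 1.29), and the last 2 intervals reach past 1 log2 unit on both sides. The median over the 10 genes was -0.59, against -0.01 over all genes, and with the neutrophil-low spots below it was -0.19 against -0.07. The genes were chosen for their level in these tumour sections, so nothing is read from these medians.

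With the neutrophil-low spots, in which Mouse_627 is represented almost wholly by the patch described above, edgeR called 1.34% of 14255 genes higher and 1.16% lower than in the primary tumour. These spots were set apart after the removed band was seen to hold little of the 10 genes (Syt13 at 15.8 CPM), so the values of this fit are not independent of that choice and its calls among the 10 genes are given as a description. Of the 10 genes 1 passed. Syt13 was at 688 and 101 CPM in these spots and 91.1 and 56.8 CPM in the tumours, both lungs above both tumours, with a log2 fold change of 2.12 (standard error 0.53, edgeR adjusted p = 0.0268). With the mouse as a block the value was 1.76 (standard error 0.50) and no longer passed (edgeR adjusted p = 0.0744), and over the 11 fits tried, 1 of them by DESeq2, the adjusted p of Syt13 ranged from 0.0268 to 0.682. Hmga2 was at 150 and 146 CPM here, with a log2 fold change of -1.24 (standard error 0.37, edgeR adjusted p = 0.0713). Within each mouse it stood at 46.3% and 42.7% of the primary tumour level. It was lower in the lung in all 11 fits, from -1.76 to -1.24, and its adjusted p ranged from 0.0713 to 0.638. The remaining genes had adjusted p of 0.206 or more in this edgeR fit. Other genes on the marker lists did pass in it, among them Csf3 and Mmp3, 4T1 markers that were themselves chosen on these sections, and 5 of 9 hypoxia genes (Adm, Bnip3, Car9, Ndrg1 and Slc2a1), all lower in the lung-poor spots. Called higher there were 9 of 17 alveolar and capillary, 4 of 10 fibroblast, 3 of 10 neutrophil and 3 of 7 airway markers. So were 3 of 7 smooth muscle, 2 of 7 cardiac, 1 of 10 endothelial and 1 of 10 macrophage markers. With the mouse as a block these counts were 8, 3, 2, 3, 3, 1, 0 and 0. The same hypoxia genes, Csf3 and Mmp3 passed with the block. In the edgeR fit on all lung-poor spots without the block 0 of 9 hypoxia genes and none of the 4T1 markers passed. With the block on all lung-poor spots, 4 of 9 hypoxia genes (Adm, Bnip3, Car9 and Ndrg1), Csf3 and Mmp3 passed, all lower there. The part of the markers called higher in the values of the 10 genes was not tested.

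Across lung spots pairs of the 10 genes correlated weakly to moderately, and no baseline from pairs of other genes is given. Pearson's r between log-transformed UMIs per 10000, over 45 pairs of genes, had a median of 0.249 (0.017 to 0.497) in 1697 spots of Mouse_627 and 0.386 (0.122 to 0.503) in 2780 spots of Mouse_628. In the primary tumours the medians were 0.155 and 0.116. Wnt7b and Syt13 gave the highest pair in Mouse_627 at 0.497 and Oaf and Fscn1 in Mouse_628 at 0.503. Pairs with Tmem158, the gene with the fewest UMIs, were the lowest in both lungs, at 0.017 to 0.090 in Mouse_627. Without them the range was 0.123 to 0.497 in Mouse_627 and 0.278 to 0.503 in Mouse_628. Against the sum of the other 9 genes, Mtap was highest in Mouse_627 at 0.413 and Oaf in Mouse_628 at 0.579, and Hmga2 gave 0.348 and 0.462. Spots of a section share a library, differ in depth and are not replicates, so no p-value is given. In Mouse_628 the genes also rose with the log depth of a spot, with r between 0.173 (Tmem158) and 0.518 (Oaf), against -0.004 to 0.121 in Mouse_627.

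**Figure D5:**
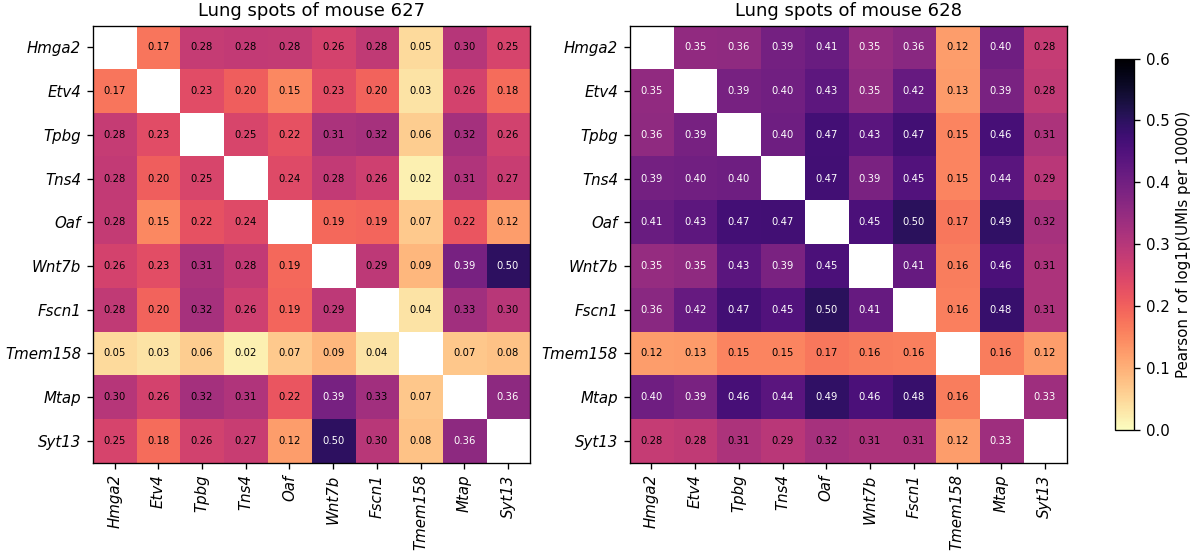
Pearson's r between pairs of the 10 genes over lung spots, on log1p of UMIs per 10000. In both lungs the row of Tmem158 is the palest, and in Mouse_627 Wnt7b and Syt13 form the darkest pair.

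These correlations depended on depth and on scale. When each spot was thinned to 2000 UMIs the medians were 0.088 and 0.097, and when each spot was summed with its neighbours they were 0.514 and 0.692. Within lung-poor spots alone the median was 0.578 in Mouse_627, whose 74 spots join the patch with the neutrophil-rich band, and 0.102 in Mouse_628. Without the lung-poor spots it was 0.162 and 0.293, unthinned and with the spots next to the patches included. Each gene resembled its own neighbouring spots as well, from 0.162 (Tmem158) to 0.681 (Syt13) in Mouse_627 and from 0.199 (Tmem158) to 0.657 (Mtap) in Mouse_628.

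The genes outside the list whose levels followed the sum of the 10 most closely, by the mean r over both lungs, were Lgals1 at 0.537 and 0.721, Ctsl at 0.407 and 0.688, Ccnd1 at 0.448 and 0.638, Spp1 at 0.449 and 0.624 and Lmna at 0.363 and 0.641 in Mouse_627 and Mouse_628. The median over 9968 genes was 0.016 and 0.082. Lgals1 encodes galectin-1, Ctsl a lysosomal protease, Ccnd1 cyclin D1, Spp1 osteopontin and Lmna a nuclear lamin. The first 3 of these were also the closest to Hmga2 alone, with Lgals1 at 0.325 and 0.448. Among marker lists the sum followed most closely the 4T1 markers, which were chosen on these sections, at 0.346 and 0.693. It followed proliferation genes at 0.337 and 0.680 and macrophage genes at 0.287 and 0.526. It ran against neutrophil genes at -0.512 and -0.696, alveolar and capillary genes at -0.330 and -0.550 and endothelial genes at -0.296 and -0.508. Lymphoid genes were at -0.066 and -0.149. Mesothelial genes, at 0.094 and 0.411, and hypoxia genes, at -0.033 and 0.325, gave unlike values in the lungs of Mouse_627 and Mouse_628. So did airway genes, at 0.070 and -0.367.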

How the data were processed

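Counts of 19465 genes per spot were deposited by the authors as unnormalized UMI counts from Space Ranger 2.0.0 on mm10, per the file headers and labels, together with the grid position of each spot. Spots with more than 200 genes were kept, and UMIs were summed per section or class of spots and expressed as CPM of all UMIs there. Intervals of levels are exact Poisson intervals, intervals of ratios are exact binomial ones (95%), and both cover counting error only. Sums of spots were compared in R 4.3.3 by edgeR 4.0.16 (TMM, filterByExpr, quasi-likelihood test, Benjamini-Hochberg adjustment over all genes tested, threshold 0.05) and by DESeq2 1.42.0 as an alternative. The code was tested on simulated counts. Other values were computed in Python 3.11.15 with numpy 2.4.6 and scipy 1.17.1.

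The 10 genes and the marker lists were chosen with earlier results of these data known, and the named relatives are members of the same families and pathways. Genes outside the list were named by the highest mean correlation over both lungs (5 for the sum, 3 for Hmga2), and the leading genes of the patch of Mouse_627 were chosen after their values were seen. Of the alternatives in the closing section, 5 were added after the data were seen. Same-mouse sums pair because they come from 1 animal, and their deviations from the class means correlated at -0.290 over 14790 genes. Nothing beyond the animal says that sections were separate preparations, so p-values measure the spread between these sections. No doublet caller was run and no cell-type makeup was estimated, and histology images were not used here. Depth per section was 13532158 and 10890154 UMIs in the primary tumours and 11122812 and 30240176 UMIs in the lungs of Mouse_627 and Mouse_628.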

Additional observations from a re-analysis of the deposited data

How the results depend on the processing

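The count of genes at least 2-fold higher in primary tumour than in lung in both mice, 4 of 10, was 0 with a threshold of 4-fold, 3 (without Wnt7b) with the mean over spots and 1 (Hmga2) with TMM-scaled CPM, a scaling that lowered the tumour to lung ratios by 0.51 (Mouse_627) and 0.43 (Mouse_628) on the log2 scale and put Tmem158 in Mouse_627 and Tpbg and Fscn1 in Mouse_628 below 1. With either mouse left out the count was 4 to 9, and without Mouse_628 it was 9. For lung-poor against lung-rich spots, 9 of 10 became 2 (Etv4 and Wnt7b) at 4-fold and 9 to 10 with either mouse left out.

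For lung-poor spots against primary tumour, 11 genes were called by edgeR in the main setting, 222 by DESeq2, 415 with no filter, 207 with the mouse as a replicate block, 3 and 506 with a stricter and a looser lung-poor cut (50% of the 90th percentile for the looser), 7 without epidermis, muscle and adipocyte spots and 0 (1079 at an unadjusted p under 0.05) with tumour spots of at least 2000 UMIs. The neutrophil-low spots gave 357, and 300 with the block, and the count of the 10 genes was 1 in the former. Without scaling beyond the total 9 genes were called. Log2 folds changed sign for genes near 0. Tpbg was 0.12 and, with the block, 0.20 with neutrophil-low spots, and Fscn1 was -0.056 without scaling, -0.0022 with the block, -0.012 with the looser cut and -0.034 with deeper tumour spots. With either mouse left out, a fold with no test, Etv4 ranged from -2.72 to 0.10, Tpbg from -1.70 to 0.66, Fscn1 from -0.94 to 0.57, Hmga2 from -2.70 to -1.23, Tns4 from -2.35 to -0.69, Oaf from -3.61 to -0.0022, Mtap from -1.55 to -0.61, Wnt7b from -1.28 to -0.31, Tmem158 from 0.77 to 1.27 and Syt13 from 0.82 to 1.32. The block changed no other call of the 10 genes than that of Syt13.

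The median correlation in lung spots of Mouse_627 and Mouse_628 was 0.088 and 0.097 after thinning, 0.514 and 0.692 for sums over neighbours and 0.578 and 0.102 in lung-poor spots alone. The causes were not tested. Depth limits Tmem158 most, with 65 UMIs in the lung of Mouse_627.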
